A study of Drosophila melanogaster with 2 samples.

Results

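The 9 genes brat, pros, grh, hb, Kr, cas, chinmo, Imp and Syp govern the fate and timing of Drosophila neuroblasts, and they were examined for binding by the transcription factor Sox102F. They were chosen by name from the 13945 protein-coding genes of the fly annotation. Every peak of the authors' optimal list whose summit lay in a gene body or within 5 kb of either end was taken, which gave 42 summits, 0.595% of the optimal list. That list is the strong end of a pooled list of 30000 entries, of which 22945 are weaker. Binding was measured by chromatin immunoprecipitation and sequencing (ChIP-seq), which recovers and counts the DNA fragments that a protein sits on. The flies came from 1 transgenic line that stably expressed Sox102F with GFP fused at its C terminus, and the free text of the labels states that the antibody was against GFP, while another label field names Sox102F. Whole animals of both sexes, pooled, were collected as white prepupae, the stage that begins metamorphosis, and 2 samples, biological replicates 4 and 1, form the single group. No untagged line or other stage was analysed here, so the data hold no contrast between conditions and no test was run.

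A neuroblast is a neural stem cell of the fly, which divides asymmetrically to renew itself and to give off a smaller daughter. Brat and Pros pass into that daughter and end self-renewal there. As neuroblasts age they express transcription factors in a set order, Hb, then Kr, then Cas, with Grh late, and in larval neuroblasts an early state with Chinmo and the RNA-binding protein Imp gives way to a late state with the RNA-binding protein Syp. Sox102F is the fly's SoxD-family protein and binds DNA through an HMG domain. The lists come from whole prepupae, in which neuroblasts are a minor tissue, so no peak can be assigned to them, and strong binding in few cells cannot be told apart from weak binding in many. Peak lists hold no expression values, so the labelled tissue could not be checked against marker genes.

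The sequences of 101 bases centred on the strongest summit of 6 of the genes are given first, with 1 further summit of brat and 1 of chinmo because a Sox word lies at or beside their centre. All are dm6 release 6 plus strand, 5′ to 3′, and capitals mark ACAAT, a core word of HMG-domain Sox proteins, or its reverse complement ATTGT.
brat strongest, chr2L:19165111-19165211: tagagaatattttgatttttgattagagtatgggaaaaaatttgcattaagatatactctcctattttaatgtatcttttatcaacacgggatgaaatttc
brat, the third by signal, chr2L:19136834-19136934: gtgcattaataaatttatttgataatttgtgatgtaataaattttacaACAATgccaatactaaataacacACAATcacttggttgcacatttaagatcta
pros strongest, chr3R:11372668-11372768: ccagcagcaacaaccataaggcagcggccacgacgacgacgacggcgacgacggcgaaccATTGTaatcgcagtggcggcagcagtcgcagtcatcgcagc
hb only, chr3R:8694251-8694351: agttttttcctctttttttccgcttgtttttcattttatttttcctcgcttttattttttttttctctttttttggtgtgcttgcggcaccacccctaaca
chinmo strongest, chr2L:1649672-1649772: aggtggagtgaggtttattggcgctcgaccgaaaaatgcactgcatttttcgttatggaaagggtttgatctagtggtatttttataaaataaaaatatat
chinmo, the third by signal, chr2L:1649885-1649985: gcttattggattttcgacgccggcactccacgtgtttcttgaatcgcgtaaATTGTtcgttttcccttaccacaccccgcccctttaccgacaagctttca
Imp strongest, chrX:10805860-10805960: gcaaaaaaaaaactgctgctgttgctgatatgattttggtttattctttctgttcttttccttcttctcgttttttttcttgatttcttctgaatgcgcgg
Syp strongest, chr3R:20778708-20778808: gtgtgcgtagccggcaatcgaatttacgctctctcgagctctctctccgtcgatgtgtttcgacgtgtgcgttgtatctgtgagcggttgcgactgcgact
The first brat window has no ACAAT on either strand, and it holds GAGAG on the reverse strand, written CTCTC here. The second brat window is 75.2% A and T and holds ACAAT at its centre, from 2 bases before the summit to 2 bases after it, and again 21 to 25 bases after it. The hb and Imp windows are rich in runs of T on this strand, with no ACAAT on either strand. The pros window is 36.6% A and T, with repeats of CGA, and its single match lies 10 to 14 bases after the summit. The Syp window is 44.6% A and T and, like the first brat window, holds GAGAG on the reverse strand, as CTCTC.

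Of the 9 genes, 7 had an optimal summit in the window, and over all protein-coding genes 43.9% did. Likewise 7 of 9 had one within 1 kb of an annotated start of their own, against 20.3% of all protein-coding genes. A gene counts here if any of its starts has a summit. The 9 genes have 28 starts, of which 12 had one, and the 20.3% is matched neither for number of starts nor for length. Kr and cas had no optimal summit in the window. These genes are not of average length, and a longer gene holds more summits. Each was therefore also set beside the protein-coding genes whose windows are 0.8 to 1.25 times as long. Of such genes, the share with no optimal summit was 28.0% for brat, 19.4% for pros, 27.6% for grh and 47.8% for hb. It was 25.3% for chinmo, 28.5% for Imp, 25.4% for Syp, 55.3% for Kr and 58.5% for cas. The 43.9% is not matched for length, so it does not measure an excess at these genes. The 9 windows cover 416.07 kb and held 1.01 summits per 10 kb, and the 6 chromosome arms held 0.527 per 10 kb. The 42 summits were unevenly divided, with 11 at brat, 9 at grh, 9 at Syp, 6 at Imp, 4 at chinmo, 2 at pros and 1 at hb. Signal below is the authors' value per peak from both replicates pooled, beside the value of replicate 4 and of replicate 1 wherever a peak of that replicate has its summit within 100 bp. The lowest signal in the optimal list was 76.7. No read counts are in the lists, and the depth of either library is therefore unknown.

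**Figure D1:**
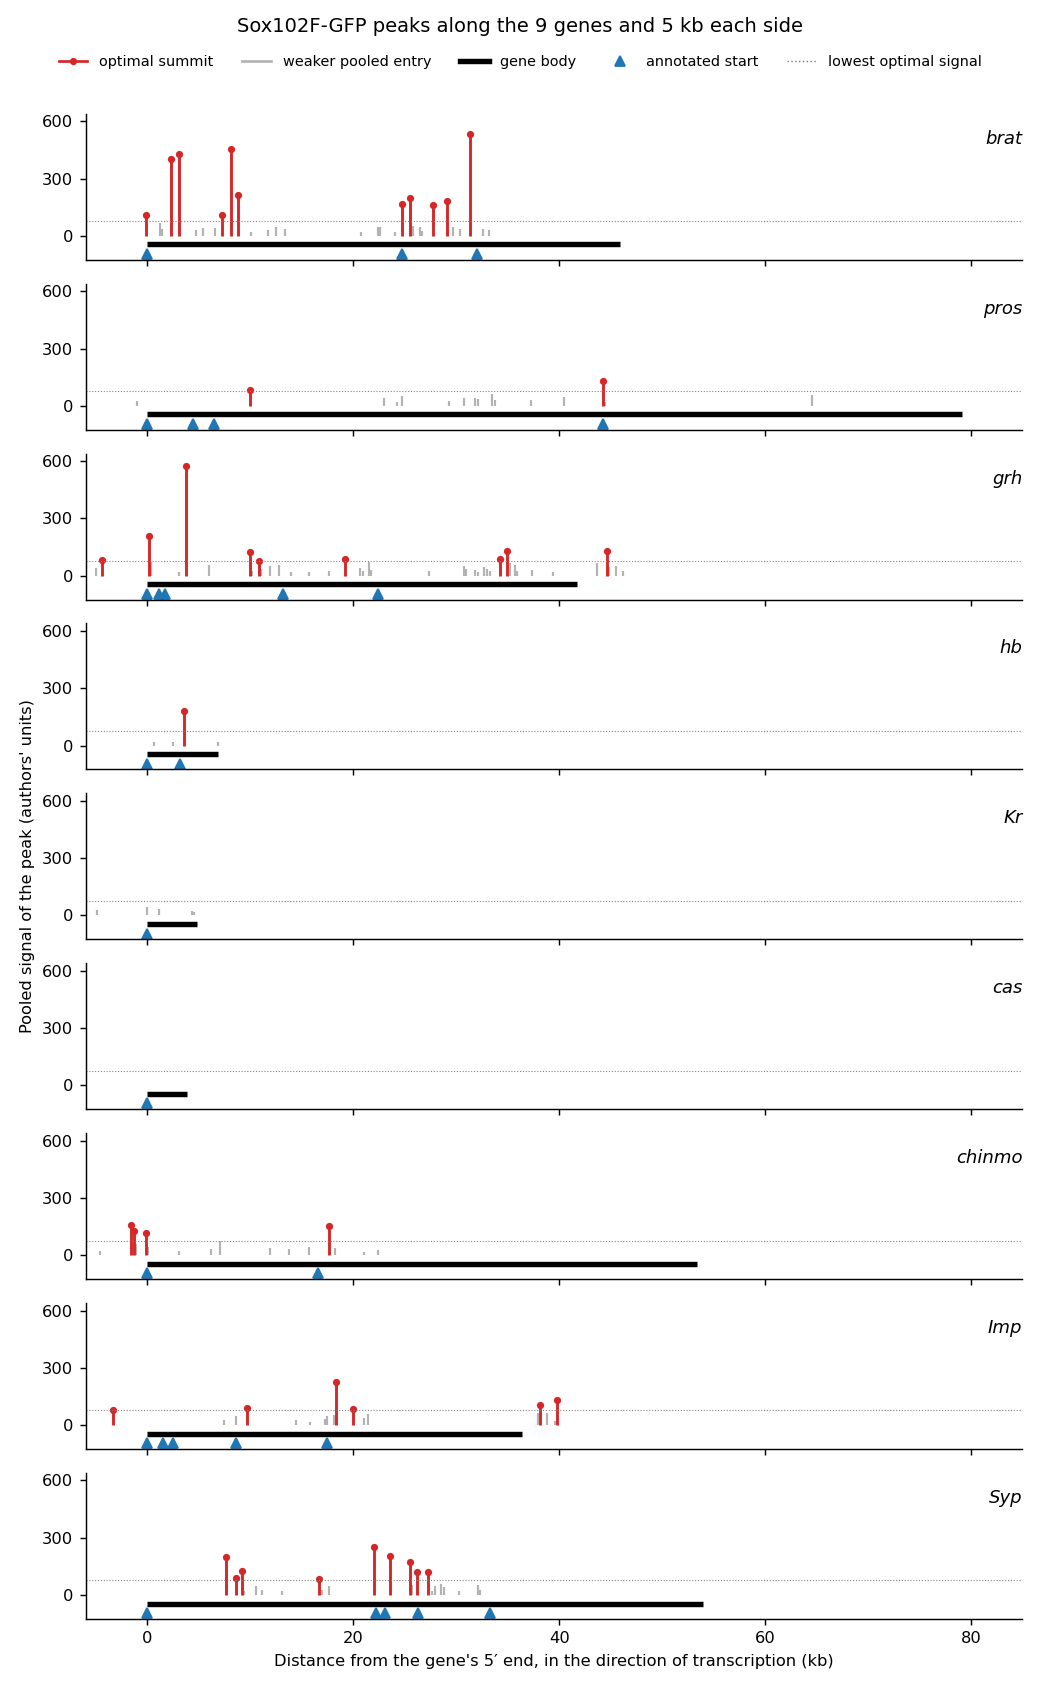
Pooled signal of each peak (authors' units, vertical) along the 9 genes, by distance from the gene's 5′ end in the direction of transcription (kb, horizontal). Red stems are optimal summits, grey stems weaker pooled entries, the black bar is the gene body, blue triangles are annotated starts and the dotted line is the lowest optimal signal, 76.7; brat carries 11 red stems and Kr and cas carry none.

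The fate determinants brat and pros differed widely. The gene brat (FBgn0010300, plus strand, chr2L:19133816-19179758, dm6) encodes an NHL-domain protein that represses translation in the differentiating daughter, and it had the most summits of the 9 and 4 of their 5 strongest. Its strongest peak, chr2L:19164986-19165312, had a pooled signal of 535, with 280.1 in replicate 4 and 252 in replicate 1, and ranked 393 in the optimal list. It lies in an intron of the other 4 transcripts, 706 bp upstream of the start of brat-RF. The second, chr2L:19141723-19142084, reached 456 (232 in replicate 4 and 225 in replicate 1) in the first part of the gene, 8087 bp past the start of brat-RA and brat-RE. The third, chr2L:19136697-19137045, reached 428 (230.5 in replicate 4 and 198 in replicate 1), and is the window with the centred ACAAT. The fourth, chr2L:19136005-19136335, reached 403, with 253 in replicate 4 and 157 in replicate 1. It lies 929 bp from a start of Polr1D, which encodes an RNA polymerase subunit and overlaps the 5′ end of brat on the opposite strand. All 4 were among the 705 strongest peaks of the optimal list.

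The other 7 brat summits had pooled signals of 111 to 217. Each of the 3 annotated starts of brat had a summit within 1 kb. At brat-RB and brat-RC the summit was 25 bp past the start, in their 5′ UTR, with a signal of 168 (86.1 in replicate 4 and 86.3 in replicate 1). At brat-RA and brat-RE it was 133 bp upstream and inside Polr1D, 200 bp from a start of that gene, with a signal of 112. There replicate 1 gave 56.0, while the nearest entry of replicate 4 was 938 bp away. Both summits were weaker than the 4 peaks described before them. A noncoding gene, lncRNA:CR44977, starts 734 bp from the summit at brat-RB and brat-RC. It also starts 79 bp from another brat summit, of signal 198. None of these peaks near another gene's start can be given to brat alone. The 11 summits span 31.5 kb and leave the last part of the gene empty. Of 318 protein-coding genes with windows of similar length, 14 (4.40%) had at least as many summits, and their median was 2.

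The gene pros (FBgn0004595, plus strand, chr3R:11328480-11407627) encodes the homeodomain protein Prospero, which in the daughter cell represses stem-cell genes and favours exit from the cell cycle. It is the longest of the 9 genes, at 79.1 kb, and held only 2 summits, or 0.224 per 10 kb of window. The stronger, chr3R:11372503-11372932, had a pooled signal of 128 and ranked 3821, with 90.6 in replicate 4 and 36.5 in replicate 1. That is 2.49 times as high in replicate 4, the widest such gap towards replicate 4 among the members. The summit is 70 bp upstream of the shared start of pros-RJ, pros-RK and pros-RL, and the annotation places the same base in a coding exon of the 3 transcripts that start further upstream. Coding exons of any transcript held 1 of the 42 member summits (2.38%) and 34 of all optimal summits (0.482%). The other, chr3R:11338251-11338680, is intronic, with a signal of 81.4 near the bottom of the list (40.3 in replicate 4 and 39.5 in replicate 1). The 3 upstream starts had no summit within 1 kb. In genes with windows of similar length the median was 4 summits, and 66.2% of them had 2 or more.

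The temporal transcription factors had the fewest summits, apart from grh. The gene hb (FBgn0001180, minus strand, chr3R:8690980-8697822) encodes Hunchback, the zinc-finger protein that opens the embryonic series. Its only summit, in chr3R:8694192-8694368, had a signal of 182, with 86.0 in replicate 4 and 95.1 in replicate 1, and ranked 2345. It lies 299 bp past the start of hb-RA, in an intron, and the start of hb-RB had none within 1 kb. One summit or more was found in 52.2% of the 2921 genes with windows of similar length.

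Kr (FBgn0001325, plus strand, chr2R:25226611-25231394), which encodes the zinc-finger repressor Krüppel that follows Hb, had no optimal summit. The nearest was 26.8 kb from its start, with a signal of 81.2. The pooled list, which runs to 30000 entries and so reaches into background, held 5 weaker entries in the Kr window, with signals of 19.4 to 45.3. The highest was 68 bp upstream of the start, with 20.9 in replicate 4 and 24.2 in replicate 1. No optimal summit was found in 55.3% of genes with windows of similar length, so an empty window is the more common state for so short a gene.

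The gene cas (FBgn0004878, minus strand, chr3R:5712975-5716805), which encodes the zinc-finger protein Castor that acts later in the series, was emptier still. Its window held no optimal summit, no weaker pooled entry and no entry in either replicate list. The nearest optimal summit was 22.2 kb from its start, with a signal of 116. Of genes with windows of similar length, 58.5% had no optimal summit. No entry of the 4 lists lay in this window, so no signal is known for it. That does not show that Sox102F is absent.

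The gene grh (FBgn0259211, plus strand, chr2R:17801132-17842820), which encodes the transcription factor Grainy head, expressed late in the embryonic series and through larval neuroblast life and also in epidermis and other epithelia, held the strongest peak of all 9 genes. That peak, chr2R:17804760-17805122, had a signal of 573, with 293 in replicate 4 and 273 in replicate 1, and ranked 346. It lies in an intron, 2059 bp past the start of grh-RH, grh-RI and grh-RL. The next, chr2R:17801190-17801332, had 209.8, with 109 in replicate 4 and 100.4 in replicate 1, and sits 157 bp past the start of grh-RP. An antisense gene, asRNA:CR45270, starts 180 bp from it. The third, chr2R:17845541-17845970, had 127 (49.5 in replicate 4 and 78.3 in replicate 1) and lies past the 3′ end, inside Orai, which encodes a calcium channel, and 943 bp from the start of olf186-M. The other 6 summits had signals of 79.5 to 127, and 2 of the 5 annotated starts of grh had a summit within 1 kb. Of 362 genes with windows of similar length, 8.01% had 9 or more. The grh window also held 32 weaker pooled entries, the most of the 9, at 6.19 per 10 kb, against 1.71 per 10 kb over the arms.

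Of the 3 larval timing genes among the members, Syp had the most summits and chinmo the fewest. The gene chinmo (FBgn0086758, plus strand, chr2L:1651258-1704682) encodes a BTB zinc-finger protein of the early larval state. Its strongest peak, chr2L:1649627-1649816, had a signal of 159.9 (61.4 in replicate 4 and 96.2 in replicate 1), 1536 bp upstream of the gene. The third, chr2L:1649720-1650149, overlaps it, with a summit 213 bp away, and had 127 (60.5 in replicate 4 and 43.1 in replicate 1). It holds ATTGT from 1 to 5 bases after its summit. The second, chr2L:1668701-1669130, is intronic, 1069 bp past the start of chinmo-RA and chinmo-RF, with 155 (54.0 in replicate 4 and 102 in replicate 1). The fourth lies 121 bp upstream of the first start, with a signal of 114. It had 42.0 in replicate 4 and no entry of replicate 1 within 100 bp. The nearest entry of replicate 1 was 173 bp away, with a signal of 62.0. Thus 3 of the 4 lay upstream of the gene and 1 in its 53.4 kb body. Of genes with windows of similar length, 42.1% had 4 or more summits.

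The gene Imp (FBgn0285926, minus strand, chrX:10787869-10824277) encodes the RNA-binding protein of the early state, which promotes Chinmo expression. Its strongest peak, chrX:10805695-10806124, had 223 (119.5 in replicate 4 and 102 in replicate 1) and lies in an intron, 946 bp past the start of Imp-RA, Imp-RB, Imp-RC and Imp-RK. The second, chrX:10784275-10784704, had 130.3 (54.3 in replicate 4 and 77.0 in replicate 1) and lies past the 3′ end, 32 bp from a start of sesB. The third, chrX:10785885-10786314, had 106, with 49.0 in replicate 1 and no entry of replicate 4 within 100 bp, the nearest being 128 bp away. Both lie inside sesB and Ant2, neighbouring genes for mitochondrial ADP/ATP carriers, so the flank rather than Imp itself contributes them. The other 3 had signals of 80.5 to 91.2, and 4 of the 5 annotated Imp starts had no summit within 1 kb. Of genes with windows of similar length, 16.8% had 6 or more.

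The gene Syp (FBgn0038826, plus strand, chr3R:20756729-20810726) encodes the RNA-binding protein of the late state, which opposes Imp. All 9 of its summits lay in the body, within a span of 19.7 kb of its 54.0 kb. The strongest, chr3R:20778656-20778866, had 253 (123 in replicate 4 and 135 in replicate 1), 137 bp upstream of the start of Syp-RB, Syp-RN and Syp-RR. The second, chr3R:20780050-20780479, had 204, with 49.1 in replicate 4 and 84.5 in replicate 1, 484 bp past the start of Syp-RC and in the 5′ UTR of 4 transcripts. The third, chr3R:20764149-20764578, had 197 (109.6 in replicate 4 and 86.0 in replicate 1) and is intronic. A summit of signal 122 lay 61 bp upstream of the start of Syp-RF, Syp-RL and Syp-RP, so that 3 of the 5 annotated starts had a summit within 500 bp. All 3 are internal, and the start at the gene's 5′ end had none nearer than 7635 bp. Of 264 genes with windows of similar length, 13.3% had 9 or more.

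**Figure D2:**
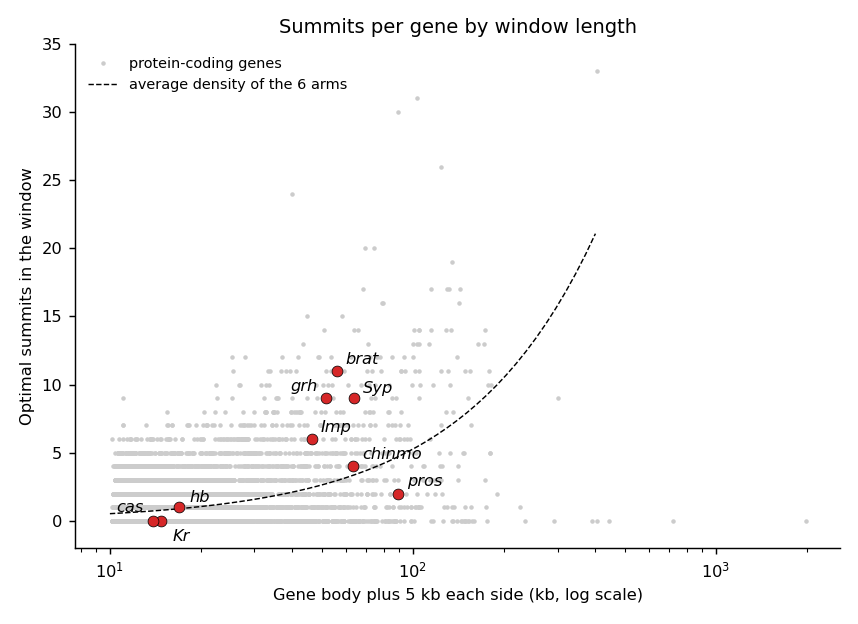
Optimal summits per gene (vertical) against the length of the gene body plus 5 kb each side (kb, log scale). Grey points are all protein-coding genes, red points the 9 members, and the dashed line is the average of the 6 arms; brat, grh, Syp and Imp lie well above the line, chinmo and hb close to it, and pros, Kr and cas below it.

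The summits lay mostly inside introns. Of the 42, 33 were in the member's own body, 6 upstream of it and 3 downstream. Some summits outside the body lie inside neighbouring genes, among them an upstream grh summit inside Dhit. By class, 27 (64.3%) were in an intron of a member or a neighbour and more than 500 bp from any start. Of all optimal summits, 43.2% were in an intron of any gene at such a distance. Within 500 bp of a start of any gene there were 11 (26.2%), against 36.4% of all, and 3 (7.14%) were intergenic, against 17.8% of all. These shares follow in part from the choice of gene bodies as windows and were not tested. The median distance to the nearest start of any gene was 1196 bp for the 42 and 1214 bp for all. Of the 28 annotated starts of the 9 genes, 12 had a summit within 1 kb and 16 had none. Another gene's start lay within 1 kb of 9 of the 42. No share over all annotated starts or all optimal summits is given beside these start counts. They are description only and do not show whether the members are unusual.

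The members' peaks were of ordinary strength for the list. Their median pooled signal was 127.7 (79.5 to 573), against 135.4 for all optimal peaks. Of the 42, 5 (11.9%) were among the 705 strongest, which are 9.99% of the list, 4 at brat and 1 at grh. Both replicates had an entry within 100 bp at 39 of the 42 (92.9%), and over all optimal peaks the share was 91.5%. The exceptions were 1 summit each at brat, chinmo and Imp, whose values stand above. Ranked by each replicate's own signal, 27 (64.3%) fell among the strongest entries of both replicates, taking as many entries from each as the optimal list holds, against 67.9% of all. Among these 27 were 9 of 11 at brat and 6 of 9 at both grh and Syp, and neither of the pros summits.

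**Figure D3:**
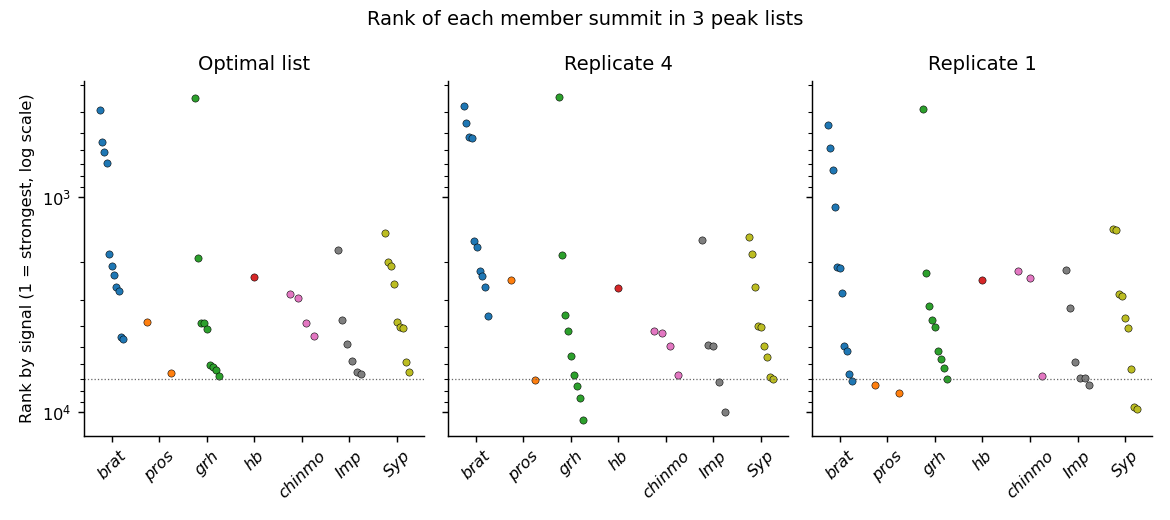
Rank by signal (1 is the strongest, log scale, inverted so that strong peaks are at the top) of each member summit in the optimal list, in replicate 4 and in replicate 1. Each point is 1 summit, ordered by rank within a gene and list, and the dotted line is the length of the optimal list; the strongest summits of brat and grh hold the top places in all 3 lists, and both pros summits fall below the line in replicate 1.

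The replicates did not differ in one direction. The signal in replicate 4 over that in replicate 1 had a median of 1.02 over the 39 summits (0.299 to 2.49), against 1.03 over all optimal peaks, and 21 of the 39 were higher in replicate 4. The signals of the replicates had a Spearman correlation of 0.57 over the 39 summits and 0.73 over 6458 optimal peaks, given as a description, since the summits share both libraries. The lowest ratio was at a Syp intron peak of pooled signal 173, with 40.4 in replicate 4 and 135 in replicate 1. By pooled signal and by replicate 4, 6 of 7 genes had the same strongest site, all but Syp. By replicate 1 the site matched in 4 of 7, the others being pros, chinmo and Syp.

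**Figure D4:**
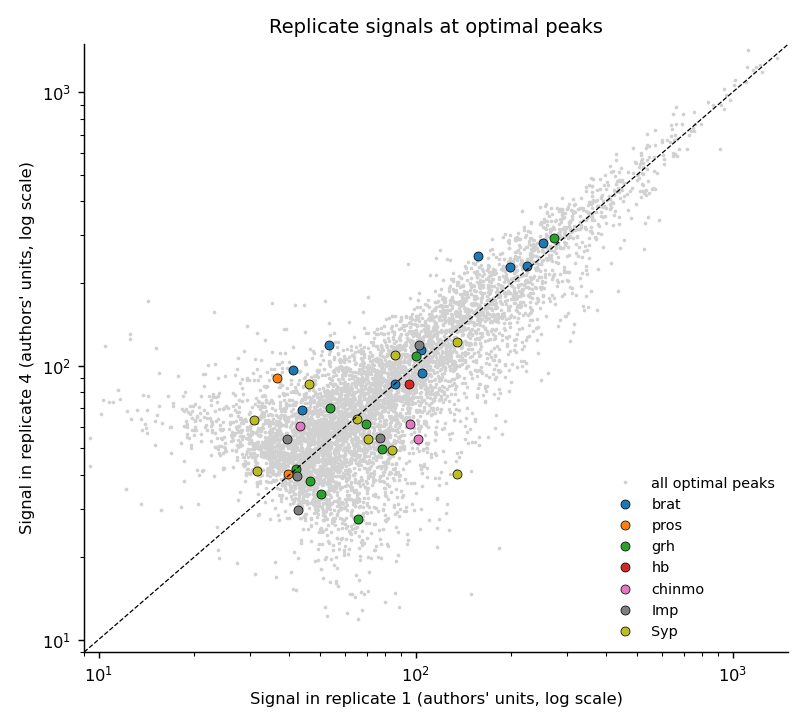
Signal in replicate 4 (vertical) against signal in replicate 1 (horizontal), both in the authors' units on log scales, at optimal peaks with an entry within 100 bp in both lists. Grey points are all such peaks, coloured points the 39 of the 7 genes, and the dashed line marks equal signal; the strong grh peak and 3 of the 4 strong brat peaks lie near the line, the fourth brat peak is 1.61 times as high in replicate 4, and weaker peaks of brat, pros, grh and Syp lie farther from it, on either side.

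Below the optimal threshold, the 9 windows held 112 weaker pooled entries, or 2.69 per 10 kb, against 1.71 over the arms. Their median signal was 34.2, against 28.7 for all weaker entries. Both replicates had an entry within 100 bp at 37 of them (33.0%), against 34.7% of all weaker entries. A single replicate had one at 61, and neither had one at 14. Within 1 kb of a member's own start lay 19. The counts of 61, 14 and 19 have no share over all weaker entries beside them and are description only. Just under the optimal threshold, the strongest weaker entries were 72.9 at chinmo and 71.2 at grh, and just inside it the lowest member summit was 79.5, at grh.

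The Sox words were about as frequent at the member summits as elsewhere. The motif AACAAT, searched on both strands within 50 bp of the summit, was at 6 of the 42 (14.3%), and 12.7% of all optimal windows of this length hold it. In windows of equal length 500 bp to each side of the same summits it was found 6 and 7 times. The shorter ACAAT, which every AACAAT contains, was at 10 (23.8%), against 29% of all, and at 11 and 12 of the flanking windows. The 6 summits with AACAAT were 2 at grh and 1 each at brat, chinmo, Imp and Syp. These are matches to letters, not shown sites, and the windows without a match say nothing of Sox102F. GAGAG, the word of GAGA factor, was at 8 (19.0%), against 14.2% of all, and TATCGATA, the word of the factor DREF, at none, against 0.822% of all. The median A and T content was 65.3% at the 42 summits and 66.3% at all, and it was 58.4% in the flanks of the 42 and 56.9% in those of all.

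Other neuroblast genes were counted in the same way, so a peak named for one of them may lie in its 5 kb flank. Beside the 7 of 9 members with a summit in the window, 25 of 38 other genes listed for their roles in neuroblasts had one. Within 1 kb of an own start, 7 of 9 members and 13 of the 38 had one. The median over genes was 0.631 summits per 10 kb for the 9 members and 0.632 for the 38. Summed over windows, the members had 1.01 per 10 kb and the 38 had 0.769, from 114 summits in 1482 kb, and these differences were not tested. In the embryonic series 1 of 3 had a summit, nub, a POU-domain factor, with 108.7 (58.2 in replicate 4 and 47.3 in replicate 1), and pdm2 and svp had none. Among larval timing genes 5 of 6 did, the strongest at lncRNA:let7C, the precursor of the let-7 microRNA cluster, with 390.0 (216 in replicate 4 and 177 in replicate 1), and at mamo, a zinc-finger factor, with 309 (136 in replicate 4 and 179 in replicate 1); lin-28 had none. At least as many summits as the 11 of brat were found at 3 of the 38, with 16 at hth, 11 at mamo and 11 at the ecdysone receptor gene EcR. Their windows are longer, at 142, 154 and 91.2 kb, against 55.9 kb for brat. Per 10 kb they held 1.13, 0.712 and 1.21 summits, against 1.97 at brat.

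Among self-renewal and progenitor factors 5 of 8 had a summit, and ase, wor and sna had none. There, E(spl)mgamma-HLH, a Notch target, had 512 (237 in replicate 4 and 282 in replicate 1). No summit in its 10.9 kb window, most of it flank, lay within 1 kb of its own start. The gene klu, a zinc-finger factor, had 335 (183 in replicate 4 and 149.8 in replicate 1). Among genes of asymmetric division 6 of 10 had a summit. There, par-6, a polarity protein, had 446 (231 in replicate 4 and 207 in replicate 1) and numb, a Notch inhibitor, 376 (166 in replicate 4 and 215 in replicate 1), and mira, the adaptor that carries Pros and Brat, had none, nor had l(2)gl, mud or stau. Of optic-lobe and intermediate-progenitor genes 6 of 8 did, with hth, a homeodomain factor, at 234 (129 in replicate 4 and 110.5 in replicate 1) and ey, a Pax6 protein, at 202 (116 in replicate 4 and 84.8 in replicate 1), and slp1 and tll had none. The last group was listed under RNA-binding partners of brat. In it pum, a translational repressor, had the strongest peak of all genes listed, at 1166 (626 in replicate 4 and 531 in replicate 1). The gene nanos, partner of pum in repression, had 273 (144 in replicate 4 and 128 in replicate 1), and mei-P26 had no summit.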

How the data were processed

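Per the labels, Sox102F-GFP was mapped by ChIP-seq in 2 biological replicates, 4 and 1, whose files are peak lists on dm6 and dm3. The 4 dm6 lists were used, as deposited: 1 per replicate, 1 pooled and 1 optimal, with the summit offset read from each. The signal of each peak is the authors' deposited value, with no unit given. The sources used here do not give the aligner, peak caller, control or threshold of the irreproducible discovery rate. The dm3 lists were not used, as they need another annotation. Genes came from Ensembl release 115 and sequence from the release 6 assembly, on 6 arms. The labels call the replicates biological and do not say whether they were separate collections of animals. Summits were counted in gene bodies plus 5 kb, and matched between lists within 100 bp. The 3 strongest summits of each member are described, and of other listed genes the 2 strongest per group. The name nos was matched as nanos and let-7-C as lncRNA:let7C. Members and lists were chosen with earlier results of these data known. The comparison of similar window lengths, the words GAGAG and TATCGATA, the ranking in both replicates and the summits described beyond these rules were chosen after the values were seen. Alternatives covered the list, flank, start window, matching distance and word. Counting functions were tested on simulated data (Python 3.11.15, numpy 2.4.6, pandas 2.3.3, matplotlib 3.10.9).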

Additional observations from a re-analysis of the deposited data

How the results depend on the processing

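Of 36 alternatives of the summary results, 29 stayed within 1.5 times the reported count or left the ratio as reported. The 42 optimal summits became 19 among the 3527 strongest of the optimal list and 154 with all pooled entries. They numbered 33 with no flank, and 40 to 42 with 1 replicate's strongest entries in place of the optimal list, taken to the same length. The genes with a summit numbered 7 with either replicate, but with replicate 1 pros is counted only through an entry between mgr and Irbp that the pooled list lacks, since both optimal pros summits rank below that length there (8132 and 7460). Genes with a summit numbered 6 among the 3527 strongest and 8 with all pooled entries. Those with one near an own start were 6 to 7 with either replicate or another start window. They were 5 among the 3527 strongest and 8 with all pooled entries. Summits within 500 bp of any start were 10 to 13 with either replicate, the last chosen after seeing the data. The median ratio of replicate 4 to replicate 1, 1.02, was 1.05 with matching at 50 bp and 0.9998 when each signal was divided by its list's median. AACAAT was at 2 summits within 25 bp, and ACAAT at 10 within 50 bp. The strongest site was the same as the pooled one in 4 to 6 of 7 genes, 4 without replicate 4. Of 72 alternatives of single genes' counts, 20 moved by over 1.5 times, among them pros, with 1 summit in replicate 4 alone, that other entry in replicate 1 alone and 0 among the 3527 strongest, chinmo with 1 and Imp with 3 with no flank. No paired analysis was possible because there is 1 group. With 2 replicates of unknown depth, no interval can be given. A gene with no listed peak has no value in the lists. Absence from a list does not bound its signal, since some strong replicate entries have no pooled entry nearby.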

Other observations

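Past the 3′ end of pros, replicate 1 held a strong entry with no counterpart in the other lists. It lay 2.34 kb beyond the end, between the divergent starts of mgr and Irbp, 92 bp and 80 bp upstream of them, with a signal of 213 and rank 647 in replicate 1. The nearest pooled entry was 11998 bp away and the nearest entry of replicate 4 was 11992 bp away. Among the 705 strongest entries of each replicate, 3 of replicate 4 (0.426%) and 7 of replicate 1 (0.993%) had no pooled entry within 500 bp. The cause was not tested.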
